A study of Mus musculus with 12 samples.

Results

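The antioxidant enzymes and metallothioneins were examined as a set of 10 genes among the 36008 genes of the expression table. They were Mt1, Mt2, Sod1, Sod2, Sod3, Cat, Gpx1, Prdx3, Hmox1 and Nqo1, taken by symbol. The set was chosen with earlier results of these data known. Events of exon skipping (SE) and of mutually exclusive exons (MXE) in these genes were taken from the splicing tables by the same symbols. Gastrocnemius and quadriceps of the left hind limb of 6 female mice gave 12 RNA libraries in 4 groups of 3. Flight mice M11, M12 and M20 spent 9 weeks on the International Space Station and ground controls M02, M03 and M08 stayed on Earth. All were 30 weeks old at the start, and both groups received saline injections every 2 weeks. The strain is BALB/c in the study's methods and C57BL/6 in the sample labels, with no genetic change in either group. The muscles were dissected from frozen and thawed carcasses, and both muscles of a mouse come from the same carcass.

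Muscle fibers produce superoxide at mitochondria and at membrane oxidases, and superoxide dismutases convert it to hydrogen peroxide. Catalase, glutathione peroxidases and peroxiredoxins then remove the peroxide, each in its own compartment of the cell. Metallothioneins are small cysteine-rich proteins that bind zinc and copper, and their genes are classic targets of metals, of glucocorticoid hormones and of oxidative stress, whereas Hmox1 and Nqo1 are textbook targets of the transcription factor Nrf2.

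The measured quantity was TPM, an abundance scaled for transcript length and for the library total, which keeps no counting depth. The listed values of a library summed to between 923295 and 966638 TPM. Fast fiber genes summed to between 88967 and 139274 TPM per library, so the labelled tissue carried its defining transcripts. The quadriceps library of ground mouse M08 stood apart with 18172 detected genes, while the remaining libraries had 20291 to 21265. Log2 fold changes (log2 FC) are on the scale of log2(TPM + 1), and differential gene expression (DGE) was called by limma at a Benjamini-Hochberg adjusted p under 0.05 over 10481 genes and a change of more than 1.5-fold. In whole muscle, fewer cells of a type and less RNA per cell cannot be told apart.

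The superoxide dismutases of mitochondria and cytosol were the most abundant of the 10 genes. In ground gastrocnemius, Sod2, the mitochondrial manganese enzyme, stood at 159 ± 8.63 TPM (SD, n = 3), and Sod1, the cytosolic copper and zinc enzyme, at 139 ± 12.2 TPM. The peroxide-removing enzymes came next. Prdx3, the mitochondrial peroxiredoxin, stood at 68.1 ± 4.23 TPM, Cat, the catalase of peroxisomes, at 58.8 ± 2.85 TPM, and Gpx1, the main intracellular glutathione peroxidase, at 44.9 ± 6.72 TPM. Mt1 at 18.9 ± 8.90 TPM and Mt2 at 18.6 ± 12.7 TPM overlapped, with Mt1 above Mt2 in M03 and M08 and below it in M02. Sod2 was above Sod1 in each of these 3 mice, although their ranges overlapped. Nqo1, a quinone reductase, ran from 10.7 to 13.3 TPM in this group, within the range of both metallothioneins. Hmox1, the inducible heme oxygenase, ran from 1.18 to 3.36 TPM over the 12 libraries, and Sod3, the extracellular dismutase, from 0.824 to 2.33 TPM. Neither reached the minimum of 5 TPM in any library, so 8 of the 10 genes were tested and these 2 are given as levels only.

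**Figure D1:**
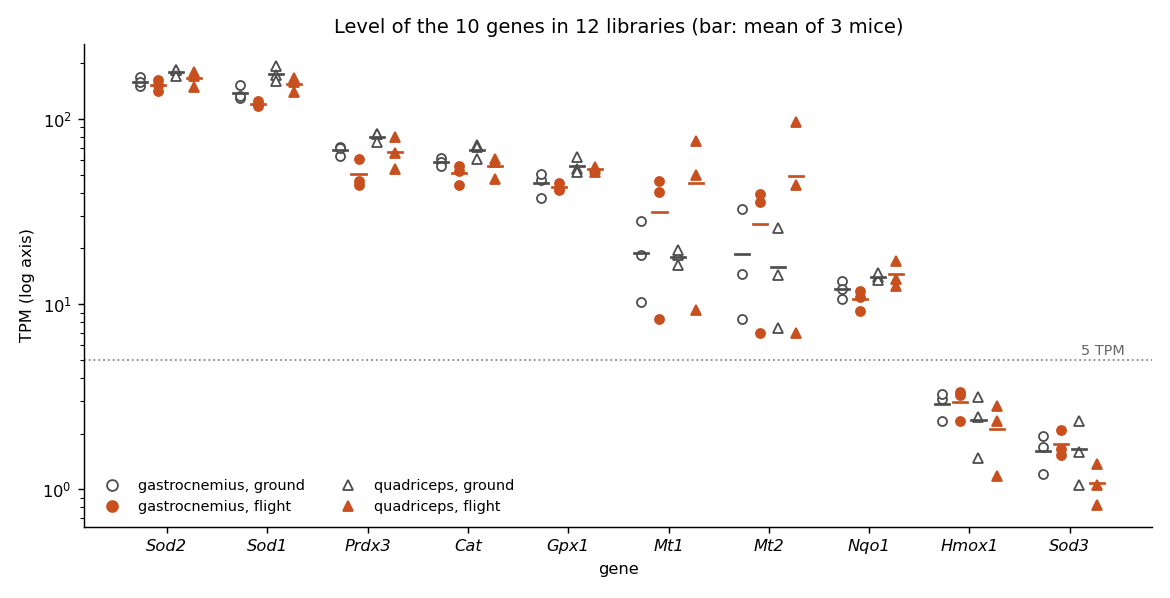
TPM (log axis) of the 10 genes, ordered by mean level, in 12 libraries. Circles are gastrocnemius and triangles quadriceps, open for ground and filled for flight, and the bar is the mean of 3 mice. Sod1 and Sod2 lie at 117 TPM or more throughout, Hmox1 and Sod3 lie below the dotted line at 5 TPM, and Mt1 and Mt2 have the widest spread in the flight groups.

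The metallothioneins varied more between mice than any enzyme of the set in 3 of the 4 groups. In ground quadriceps this held for Mt2 but not for Mt1, whose highest value was 1.19 times its lowest. Mt2 in gastrocnemius was 32.8 TPM in M02, 14.6 in M03 and 8.36 in M08 on the ground. In flight it was 7.01 TPM in M11, 39.2 in M12 and 35.5 in M20. The groups overlapped, since the lowest value of all belonged to a flight mouse and M12 and M20 lay above every ground mouse. Mt2 in quadriceps was 25.6 TPM in M02, 14.4 in M03 and 7.46 in M08 on the ground. In flight quadriceps it was 6.99 TPM in M11, 95.9 in M12 and 44.1 in M20, a 13.7-fold span among 3 flight mice. The same mice were high and low in both muscles.

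Mt1 in gastrocnemius was 28.0 TPM in M02, 18.5 in M03 and 10.2 in M08 on the ground, and 8.36 in M11, 46.3 in M12 and 40.1 in M20 in flight. Mt1 in quadriceps was 18.3 TPM in M02, 16.3 in M03 and 19.5 in M08 on the ground, and 9.30 in M11, 76.2 in M12 and 49.9 in M20 in flight. Mt1 ranked the mice of a group as Mt2 did in 3 of the 4 groups. The exception was ground quadriceps, where the M08 library, the one with the fewest detected genes, was highest of the group for Mt1 and lowest for Mt2.

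**Figure D2:**
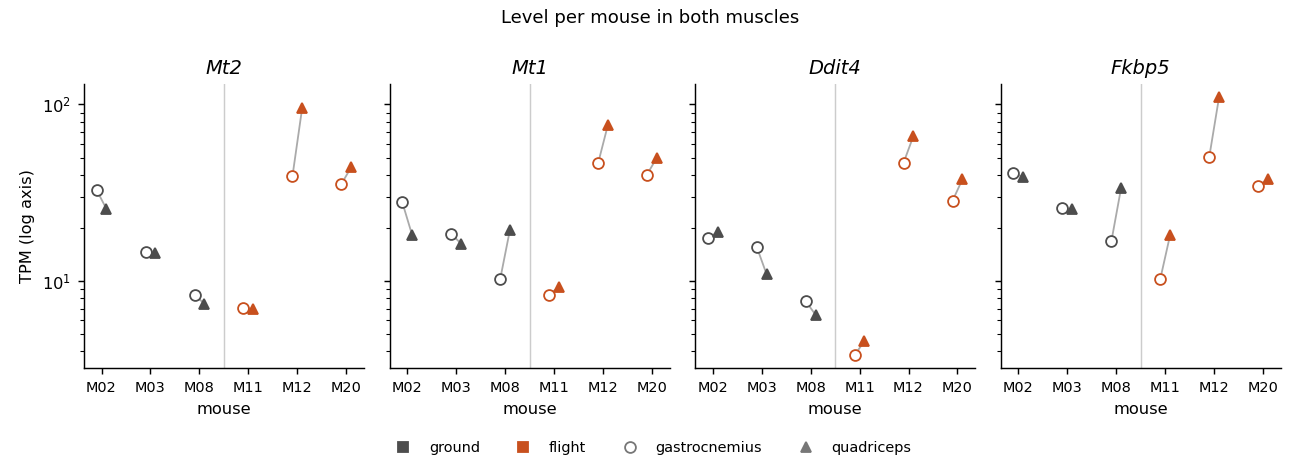
TPM (log axis) of Mt2, Mt1, Ddit4 and Fkbp5 in each of 6 mice, ground in gray and flight in orange, with an open circle for gastrocnemius and a filled triangle for quadriceps, joined within a mouse. M11 is the lowest mouse and M12 and M20 the highest in the metallothionein panels, and Mt2 runs from 6.99 TPM in M11 to 95.9 TPM in M12.

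Over the 12 libraries, the SD of log2(TPM + 1) was 1.19 for Mt2 and 0.98 for Mt1, larger than that of 98.8% and 98.1% of the genes kept. The same SD was 0.12 for Sod2, 0.20 for both Cat and Gpx1, 0.22 for Nqo1, 0.23 for Sod1 and 0.30 for Prdx3. Across the 6 mice, Mt2 in one muscle followed Mt2 in the other with a Pearson r of 0.936 (exact permutation p = 0.00694, two-sided) and a Spearman rho of 1 (exact permutation p = 0.00278, the smallest that 6 mice allow). Without M11 and M08, the mice farthest from the median in gastrocnemius, r was 0.838. This r exceeded that of 97.8% of kept genes, whose median r was 0.30. For Mt1, r was 0.865 (exact permutation p = 0.0389) and rho 0.829 (exact permutation p = 0.0583), with an r of 0.933 without M11 and M08. Such a relation was computed for each of the 10 genes, the p-values are not adjusted, and it was not read as a call for any gene. The 6 mice pool ground and flight, so a group difference that both muscles share also raises r. Groups of 3 mice are too few to give the relation within ground or within flight.

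Cat (r = 0.900, exact permutation p = 0.0181; rho = 0.943, exact permutation p = 0.0167) and Prdx3 (r = 0.879, exact permutation p = 0.0208; rho = 0.829, exact permutation p = 0.0583) also had a high r over all 6 mice. Their relation rested on the mice at the extremes, since r was 0.276 for Cat without M11 and M02 and -0.29 for Prdx3 without M12 and M20. A difference between ground and flight also enters their r. Every flight mouse lay below every ground mouse for Cat in both muscles and for Prdx3 in gastrocnemius. For the other 6 genes r ran from -0.05 for Hmox1 to 0.772 for Sod2, with no exact permutation p under 0.05.

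Spaceflight gave no DGE call for the metallothioneins. The log2 FC of Mt2 was 0.42 ± 0.68 (SE) in gastrocnemius and 1.11 ± 0.88 in quadriceps, and that of Mt1 was 0.51 ± 0.62 and 0.85 ± 0.67. The limma adjusted p-values for Mt2 were 0.805 and 0.670, and those for Mt1 were 0.732 and 0.669. The 95% confidence intervals were wide, from -0.98 to 3.20 for Mt2 in quadriceps, so neither no change nor a large rise was outside them. Single mice moved these values in both directions. Without M12, the mean of both muscles gave a log2 FC of 0.18 for Mt1 and 0.17 for Mt2, in place of 0.68 and 0.76, and without M20 it gave 0.38 and 0.48. Without M08, the log2 FC of Mt2 in gastrocnemius was -0.015. Without M11, the mean gave Mt1 a log2 FC of 1.49 (limma adjusted p = 0.0185), which passed the DGE thresholds, and Mt2 a log2 FC of 1.65 (adjusted p = 0.0962), which did not. Over all alternatives, that log2 FC of Mt1 lay between 0.18 and 1.49. The flight effect on Mt2 was larger in quadriceps than in gastrocnemius by 0.69 ± 0.29 on the log2 scale, and did not pass (limma adjusted p = 0.957). Without M12 it was 0.32. The flight mice lay above the ground mice in this difference, but M11 at -0.0039 and M03 at -0.022 nearly met. In this limma test of the difference between muscles 0% of genes passed, 534 genes or 5.09% had an unadjusted p under 0.05, 2.6% in the direction of Mt2, and 5.24% had flight mice wholly above ground mice.

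The genes with the profile most like Mt2 were ranked by the mean absolute difference of log2(TPM + 1) over the 12 libraries, each gene centred on its own mean. Ddit4, a stress-induced inhibitor of mTORC1 signaling, was nearest at 0.25, ahead of Mt1 at 0.26 and Depp1 at 0.34. The predicted genes Gm15833 at 0.37 and Gm4735 at 0.40 followed, whereas a flat profile lay at 1.02. Gm15833 exceeded 5 TPM only in M12 and M20, and Gm4735 only in quadriceps of M12. Both predicted genes were thus kept only through libraries with high Mt2, which favored their likeness to it. Nearest to Mt1 were Mt2 at 0.26, Gadd45g, a growth arrest and DNA damage gene, at 0.27, Ifi207 at 0.32, Ddit4 at 0.32 and Fkbp5, a chaperone of the glucocorticoid receptor, at 0.33, against 0.81 for a flat profile. Ddit4 in gastrocnemius was 17.5, 15.6 and 7.70 TPM in M02, M03 and M08 and 3.82, 46.9 and 28.5 TPM in M11, M12 and M20. In quadriceps it was 18.9, 10.9 and 6.45 TPM in the same ground mice and 4.59, 66.3 and 37.7 TPM in the same flight mice. Ddit4 was thus lowest in M11 and highest in M12 in both muscles.

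The 100 nearest genes are 0.954% of those kept. Among the 100 nearest to Mt2 were 5 of the 16 tested glucocorticoid-induced genes (31.25% of that list and 5% of the nearest), namely Ddit4, Fkbp5, Zbtb16, Tsc22d3 and Cdkn1a. The same genes and Errfi1, 6 of 16 (37.5% of the list), were among the 100 nearest to Mt1. No metal handling gene of 15 tested was among the nearest of either, and of the other 14 pathway and marker lists each gave 0 or 1 gene. The lists were chosen with earlier results of these data known. Mt2 and Mt1 varied more than 98.8% and 98.1% of kept genes, so a list of genes that vary little could hardly enter. These shares are descriptions over the same 12 libraries, in which a mouse contributes both muscles, and what moved these genes together was not tested.

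Mt2 and Mt1 lie next to each other on chromosome 8 of GRCm38, with Mt2 at chr8:94172664-94173568 and Mt1 at chr8:94179082-94180327, both on the plus strand and 5513 bases apart in the GENCODE vM21 annotation. Their upstream sequences are shown because the pair moved together between mice and because metal-response elements (MRE), bound by the metal-sensing factor MTF1, are known in both promoters. The 250 bases before the RefSeq start (GRCm38.p6) are at chr8:94172368-94172617 for Mt2 and chr8:94178839-94179088 for Mt1, both on the plus strand, with matches to the MRE cores TGCGCNC or TGCACNC on either strand in capitals.
Mt2: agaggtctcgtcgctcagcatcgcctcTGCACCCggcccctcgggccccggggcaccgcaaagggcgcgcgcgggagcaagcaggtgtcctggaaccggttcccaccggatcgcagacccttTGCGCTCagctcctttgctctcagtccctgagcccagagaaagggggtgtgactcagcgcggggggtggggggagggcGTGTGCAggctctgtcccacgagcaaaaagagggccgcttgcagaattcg
Mt1: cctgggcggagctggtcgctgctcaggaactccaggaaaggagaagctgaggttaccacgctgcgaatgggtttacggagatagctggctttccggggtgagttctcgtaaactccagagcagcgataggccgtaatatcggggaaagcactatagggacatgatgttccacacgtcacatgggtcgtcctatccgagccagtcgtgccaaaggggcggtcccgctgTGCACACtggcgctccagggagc

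These windows hold 3 cores for Mt2 and 1 for Mt1. Of 32851 RefSeq promoters, 21.4% held at least 1 core in the same 250 bases and 1.26% held 3 or more. With the first 50 bases after the start added, Mt2 had 4 cores and Mt1 had 3, and 0.517% and 1.97% of promoters held at least as many. GENCODE lists other Mt1 transcripts that start 122 and 152 bases after the RefSeq start and Mt2 transcripts that start 46 and 242 bases after it, so part of the sequence before those starts lies outside the window. A glucocorticoid response element, searched as GNACA and TGTNC with 3 bases between them, matched 94 bases before the Mt1 start and is found in 0.387% of promoters. The antioxidant response element TGACNNNGC matched once in Mt2 and once in Sod1, against 10.2% of promoters. The windows of Sod2, Cat, Gpx1, Prdx3 and Nqo1 held none of these letters, which says only that they are absent from those 250 bases. Promoters of 8 of the 10 genes were matched, and Hmox1 and Sod3 had no entry. A match is not evidence of binding.

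Among the enzymes, Prdx3 had the lowest p for flight against ground in gastrocnemius. Prdx3 in gastrocnemius was 63.3, 71.0 and 70.1 TPM in M02, M03 and M08 and 60.7, 44.1 and 46.5 TPM in M11, M12 and M20. Every flight mouse lay below every ground mouse, with M11 closest to the ground level. The log2 FC was -0.44 ± 0.13 (limma adjusted p = 0.217, 0.368 to 0.516 in the fits that left out a mouse other than M11), which did not pass. Without M11 it was -0.58 with an adjusted p of 0.0377, still short of 1.5-fold. Prdx3 in quadriceps was 82.64, 82.73 and 75.03 TPM in M02, M03 and M08 and 80.2, 53.8 and 65.4 TPM in M11, M12 and M20. Here the groups overlapped through M11, and the log2 FC was -0.28 ± 0.14 (limma adjusted p = 0.520), or -0.43 without M11 and -0.14 without M12.

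Cat in gastrocnemius was 61.7, 58.5 and 56.1 TPM in M02, M03 and M08 and 44.1, 56.0 and 52.4 TPM in M11, M12 and M20. In quadriceps it was 72.8, 61.1 and 70.9 TPM on the ground and 47.4, 60.8 and 58.9 TPM in flight for the same mice. In both muscles every flight mouse lay below every ground mouse, by a margin of less than 1 TPM between the nearest values. The log2 FC was -0.21 ± 0.10 in gastrocnemius (limma adjusted p = 0.382) and -0.29 ± 0.12 in quadriceps (limma adjusted p = 0.452). Without M11 it was -0.11 in gastrocnemius and -0.18 in quadriceps. M11, the flight mouse with the lowest Mt2, also had the lowest Cat and the highest Prdx3 of the flight mice in both muscles.

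Sod1 in gastrocnemius was 130.5, 152.8 and 133.1 TPM on the ground and 120.7, 117.2 and 125.0 TPM in flight, again without overlap, with a log2 FC of -0.19 ± 0.08 (limma adjusted p = 0.338), or -0.12 without M03. In quadriceps Sod1 ran from 159.6 to 193.5 TPM on the ground and from 139.5 to 167.0 TPM in flight, which overlapped, with a log2 FC of -0.18 ± 0.10, or -0.10 without M02 and likewise without M12. Sod2 had a log2 FC of -0.06 ± 0.08 in gastrocnemius and -0.11 ± 0.09 in quadriceps, Gpx1 of -0.06 ± 0.12 and -0.05 ± 0.09, and Nqo1 of -0.17 ± 0.13 and 0.03 ± 0.13. In gastrocnemius Nqo1 was at -0.072 without M12 and -0.098 without M03, and in quadriceps Sod2 was at -0.035 without M12. The groups overlapped for these 3 genes in both muscles. The confidence intervals of Sod2, Gpx1 and Nqo1 lay within 1.5-fold in either direction in both muscles, so a larger change was outside them. For the untested genes, Hmox1 averaged 2.89 TPM on the ground and 2.96 in flight in gastrocnemius, and 2.36 and 2.11 in quadriceps. Sod3 averaged 1.62 and 1.75 TPM in gastrocnemius, and 1.65 and 1.09 in quadriceps.

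By limma, 0 of the 8 tested genes were called in gastrocnemius, where 0.229% of all genes were called, and Prdx3 alone had an unadjusted p under 0.05, against 6.55% of all genes with such a p and a lower level. The flight group lay wholly below the ground group for 3 of 8, against 8.55% of all genes, and wholly above it for none, against 12.5%. In quadriceps 0 of 8 were called, where 0.0286% of all genes were called, and Cat alone had an unadjusted p under 0.05, against 5.18% of genes lower, and lay wholly below, against 8.12%. For the mean of both muscles of a mouse, 0 of 8 were called against 0.124% of all genes, and Prdx3, Sod1 and Cat had an unadjusted p under 0.05, against 8.06% of all genes lower. Their log2 FC there was -0.36 ± 0.12 for Prdx3 (limma adjusted p = 0.190), -0.18 ± 0.07 for Sod1 (adjusted p = 0.233) and -0.25 ± 0.10 for Cat (adjusted p = 0.241), and these 3 lay without overlap, against 10.7% of genes lower. The median log2 FC of the 8 was -0.11 in gastrocnemius and -0.08 in quadriceps, beside 0.02 and 0.01 over all genes tested.

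**Figure D3:**
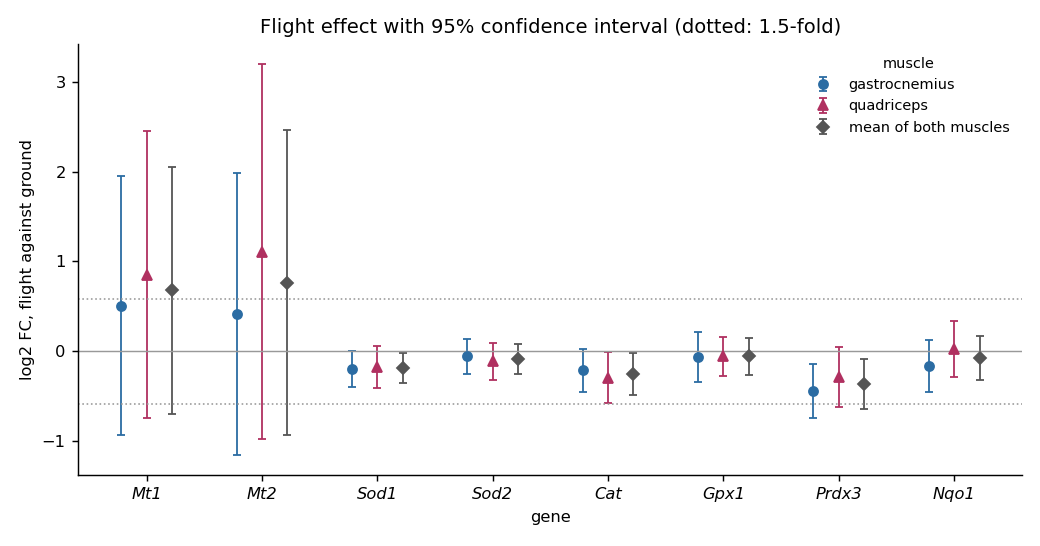
Log2 FC of flight against ground for the 8 tested genes in gastrocnemius (circle), quadriceps (triangle) and the mean of both muscles of a mouse (diamond), with 95% confidence intervals from limma; dotted lines mark 1.5-fold. Intervals of Mt1 and Mt2 span more than 2 log2 units, while those of Sod1, Sod2 and Gpx1 stay inside the dotted lines.

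Levels of other transcript groups are given beside those of the enzymes. Mitochondrial mass genes, a list of respiratory chain, citric acid cycle and import genes, were lower in flight gastrocnemius for 18 of 21, against 46.4% of all genes, with a median log2 FC of -0.17. Of the 21, 6 were lower at an unadjusted p under 0.05, against 6.55% of all genes, and none was called. Their summed level ran from 7656 to 8161 TPM on the ground and from 6450 to 7467 TPM in flight, without overlap. In quadriceps the sums were 8241 to 8926 TPM and 7439 to 8260 TPM, which overlapped. Atp5b, an ATP synthase subunit, had a log2 FC of -0.38 ± 0.09 and Cox5a, a cytochrome oxidase subunit, of -0.54 ± 0.11 (limma adjusted p = 0.157 and 0.125). Slow fiber genes were lower in flight gastrocnemius for 12 of 12, against 46.4% of all genes, with 3 called against 0.229%. Of these 3, the contractile genes Myl2 and Myl3 and the calcium pump gene Atp2a2, all stayed called without M11, 1 (Myl3) without M08 and 0 without any of the other 4 mice. The slow fiber sum ran from 2450 to 3065 TPM on the ground and from 1660 to 1863 TPM in flight. In quadriceps the slow fiber sums overlapped, at 1749 to 2315 TPM in flight and at 1400 TPM in M02 against 2825 and 2920 TPM in M03 and M08 on the ground. Their part in the values of Prdx3, Cat and Sod1 was not tested.

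In flight quadriceps, 8 of 9 tested adipocyte markers were lower, with a median log2 FC of -1.07, 8 at an unadjusted p under 0.05 and none called, against 47.9% of all genes lower and 5.18% lower at such a p. The sum of the 10 listed markers ran from 1048 to 1468 TPM on the ground and from 868 to 982 TPM in flight. Car3 weighed heavily in this sum, at means of 532 and 389 TPM. Red blood cell markers, in cells that carry Cat, Gpx1 and Prdx2, summed to 383 to 818 TPM on the ground and 351 to 539 TPM in flight gastrocnemius, and to 546 to 897 TPM and 461 to 902 TPM in quadriceps, overlapping in both. Macrophage markers summed to 42.1 to 76.2 TPM per library over all groups. Of the 8 listed red blood cell markers, 7 had values. No marker of these lists with values was at 0 in all 12 libraries, and the part of these lists in the values of Cat was not tested.

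Of the lists of related genes, 1 gene was called for flight. Ech1, an isomerase of fatty acid oxidation in peroxisomes and mitochondria, fell by 0.62 on the log2 scale in gastrocnemius (limma adjusted p = 0.0361), as 1 of 25 peroxisome genes tested, 17 of which were lower. Its call held without M11 (adjusted p = 0.0175) and was lost without any of the other 5 mice (adjusted p = 0.105 to 0.217). Of all genes, 46.4% were lower and 53.6% higher in flight gastrocnemius, and 47.9% and 52% in flight quadriceps. Among peroxiredoxins, thioredoxins and glutaredoxins, 18 of 25 were lower in gastrocnemius and 17 of 25 in quadriceps, none called, with 4 and 5 of 25 lower at an unadjusted p under 0.05 against 6.55% and 5.18% of all genes. Prdx2, the cytosolic peroxiredoxin abundant in red blood cells, had a log2 FC of -0.68 ± 0.14 in gastrocnemius (limma adjusted p = 0.126) and -0.50 ± 0.11 in quadriceps (adjusted p = 0.298), and Nnt, the mitochondrial transhydrogenase that supplies NADPH, of -0.54 ± 0.10 in gastrocnemius (adjusted p = 0.107). Prdx1 had a log2 FC of -0.31 ± 0.07 in quadriceps (adjusted p = 0.298).

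Glutathione enzymes were lower for 14 of 22 in gastrocnemius and 17 of 22 in quadriceps, against the 46.4% and 47.9% of all genes, and none was called. Mgst1, a membrane glutathione transferase, averaged 29.4 TPM on the ground and 11.9 in flight in quadriceps, with a log2 FC of -1.19 ± 0.21 (limma adjusted p = 0.244), and 17.8 and 12.2 TPM in gastrocnemius, with -0.52 ± 0.16 (adjusted p = 0.227). Gclc, the catalytic subunit of the first enzyme of glutathione synthesis, had a log2 FC of 0.36 ± 0.10 in gastrocnemius (adjusted p = 0.210) and Gpx3, the plasma glutathione peroxidase, of -0.51 ± 0.15 in quadriceps (adjusted p = 0.355). Nrf2 pathway and heme or iron handling genes had a median log2 FC of -0.05 in gastrocnemius and -0.01 in quadriceps. By limma 0 of 22 were called in either muscle, against 0.229% and 0.0286% of all genes. At an unadjusted p under 0.05 there were 0 of 22 in either muscle, against 15.1% and 10.8% of all genes in either direction. Metal handling genes had medians of 0.03 and -0.0036 over 15 genes, with 0 called. At an unadjusted p under 0.05 there was 1 of 15, against the same 15.1% and 10.8% of all genes. It was Slc39a7, a zinc transporter, at -0.29 ± 0.12 in quadriceps. Sources of reactive oxygen had medians of 0.16 in both muscles over 7 tested genes, beside 0.02 and 0.01 over all genes. None was called, and none had an unadjusted p under 0.05, against 15.1% and 10.8% of all genes. The sum of all 15 listed sources ran from 127 to 143 TPM on the ground and from 145 to 166 TPM in flight gastrocnemius, without overlap, and from 141 to 170 and 158 to 195 TPM in quadriceps, which overlapped.

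Glucocorticoid-induced genes were higher in flight for 11 of 16 in gastrocnemius and 14 of 16 in quadriceps, against 53.6% and 52% of all genes, with medians of 0.09 and 0.30 and none called. Trim63, the muscle atrophy ubiquitin ligase MuRF1, averaged 126 TPM on the ground and 156 in flight in gastrocnemius and 153 and 211 TPM in quadriceps, with a log2 FC of 0.31 ± 0.09 (limma adjusted p = 0.210) and 0.45 ± 0.13 (adjusted p = 0.347). Errfi1 had a log2 FC of 0.28 ± 0.15 and 0.43 ± 0.17 (adjusted p = 0.419 and 0.445). Their summed level was lowest in M11 of all 6 mice in both muscles, at 983 TPM in gastrocnemius and 1026 TPM in quadriceps.

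Most of the enzymes differed between the muscles in every mouse as deposited, though fewer did after the rescaling given below. In all 6 mice, Sod1, Sod2, Cat, Gpx1, Prdx3 and Nqo1 were higher in quadriceps than in gastrocnemius, 6 of the 8 tested genes, against 26% of all genes higher in all 6. By limma with mouse as a block, Sod1 was higher by 0.34 ± 0.07 on the log2 scale (adjusted p = 0.00661), Gpx1 by 0.32 ± 0.06 (adjusted p = 0.00694), Prdx3 by 0.31 ± 0.06 (adjusted p = 0.00686) and Nqo1 by 0.31 ± 0.07 (adjusted p = 0.0132). These 4 of 8 passed the adjusted p, as did 24.4% of all genes in this direction, but none exceeded 1.5-fold, so 0 of 8 were called against 3.33% of all genes. Within mice, the difference ran from 0.17 to 0.56 for Sod1, from 0.18 to 0.45 for Gpx1, from 0.10 to 0.48 for Prdx3 and from 0.02 to 0.51 for Nqo1. As deposited, the 4 genes were thus higher in quadriceps in ground and flight mice alike.

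Sod2 (0.15 ± 0.05, limma adjusted p = 0.0566) and Cat (0.17 ± 0.06, adjusted p = 0.0550) were higher in quadriceps in all 6 mice without passing. Mt1 (0.21 ± 0.17, adjusted p = 0.385) and Mt2 (0.18 ± 0.15, adjusted p = 0.402) had no common direction, and M12 alone gave 1.27 for Mt2. Hmox1 and Sod3 averaged less in quadriceps, with log2 differences of -0.31 and -0.20 and mixed signs among mice. The median over all genes was itself 0.11 higher in quadriceps and 0.02 after rescaling each library by its median ratio. After that rescaling Sod1 was higher by 0.25 (limma adjusted p = 0.0277), Gpx1 by 0.23 (adjusted p = 0.0282), Prdx3 by 0.22 (adjusted p = 0.0320) and Nqo1 by 0.23 (adjusted p = 0.0493), and Nqo1 no longer passed without M11 (adjusted p = 0.0505 as deposited). Sod1, Gpx1 and Cat stayed higher in all 6 mice after rescaling, but Prdx3 was at -0.042 in M08, Nqo1 at -0.0066 in M03, and Sod2 at -0.037 in M08 and -0.00074 in M20. The matching shares of all genes after rescaling are not given. Those of 26% and 24.4% hold for the values as deposited only, so the rescaled counts have no background. Of all called genes, 65.9% were higher in quadriceps as deposited and 42.2% after rescaling.

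**Figure D4:**
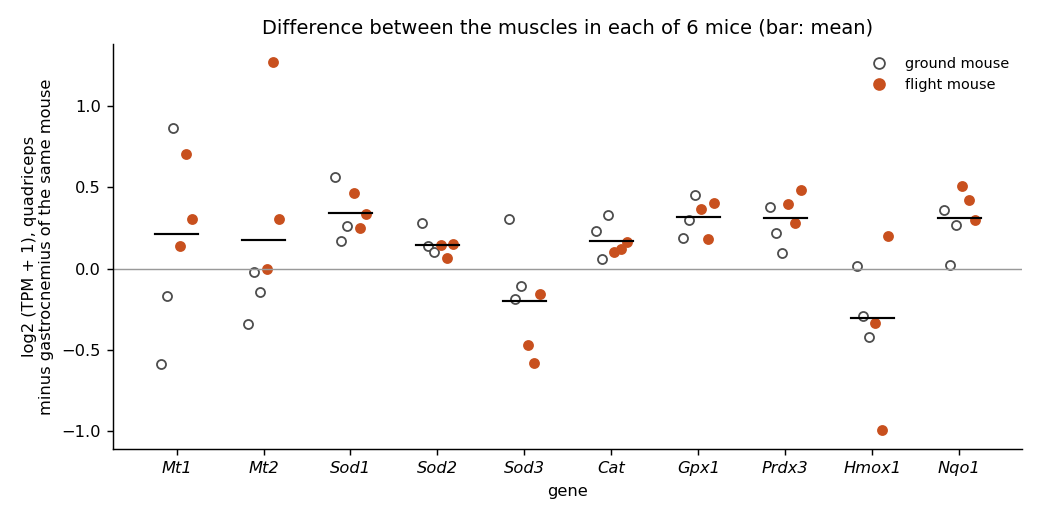
Difference in log2(TPM + 1) between quadriceps and gastrocnemius of the same mouse for the 10 genes, open for ground and filled for flight mice, with the mean of 6 mice as a bar. All 6 points lie above 0 for Sod1, Sod2, Cat, Gpx1, Prdx3 and Nqo1, while Mt1 and Mt2 lie on both sides and M12 reaches 1.27 for Mt2.

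Related genes with higher levels in quadriceps were Glrx2, a mitochondrial glutaredoxin, by 0.59 ± 0.09 (limma adjusted p = 0.00266), Me1, the cytosolic malic enzyme that makes NADPH, by 0.63 ± 0.07 (adjusted p = 9.00e-04), and Maob, a mitochondrial monoamine oxidase that yields hydrogen peroxide, by 0.62 ± 0.07 (adjusted p = 0.00111), all called as deposited. After rescaling they were higher by 0.50, 0.54 and 0.53 (adjusted p = 0.0109, 0.00325 and 0.00278), short of 1.5-fold. As deposited, they also fell short of 1.5-fold without M03, M11 or M12 for Glrx2 (0.58, 0.54 and 0.55), without M02 for Me1 (0.58) and without M08 for Maob (0.58). Mt3, another metallothionein, ran from 1.01 TPM in M11 to just above 5 TPM in M12 in gastrocnemius and from 0 to 1.49 TPM in quadriceps. It passed the filter only through that 1 gastrocnemius library, so it is given as levels with no test. Gclm, the modifier subunit of glutathione synthesis, was higher by 0.55 ± 0.08 (adjusted p = 0.00228) without reaching 1.5-fold. Of 13 fast fiber genes 11 were higher in quadriceps, against 68.6% of all genes, with a median of 0.51 and 2 called against 3.33% (1 after rescaling). Of the endothelial markers 11 of 12 and of the vascular smooth muscle markers 8 of 9 were lower, against 31.4% of all genes, with medians of -0.14 and -0.34. Other lists are set beside the 68.6% of all genes that were higher in quadriceps. The adipocyte markers were higher for 6 of 9, near that share, with a median of 0.45. Of these, 2 were called, Retn at 0.92 ± 0.18 (limma adjusted p = 0.00781) and Adipoq at 0.64 ± 0.18 (adjusted p = 0.0337). Both differed mainly on the ground. Retn averaged 6.43 and 19.1 TPM in ground gastrocnemius and quadriceps, and 4.65 and 6.33 TPM in flight. Adipoq averaged 8.12 and 19.9 TPM on the ground, and 8.30 and 8.62 TPM in flight. Car3 was lower at -0.46 ± 0.04 (limma adjusted p = 6.64e-04), short of 1.5-fold. The summed adipocyte level was lower in quadriceps in every mouse but M02. Car3 weighed heavily in this sum, at means of 714 and 549 TPM in ground and flight gastrocnemius and 532 and 389 TPM in quadriceps. Fabp4 went the other way, at 153 and 149 TPM against 292 and 175 TPM, so the sum does not stand for each marker. The call of Adipoq was lost after rescaling (0.55, adjusted p = 0.0547) and without any 1 mouse other than M12. The macrophage markers were higher for 5 of 6 with a median of 0.26. Both values include Cd163 and Mrc1, whose means exceeded 5 TPM in quadriceps only, which favored this direction. Mrc1 averaged 4.01 and 4.79 TPM in ground and flight gastrocnemius, and 6.40 and 7.67 TPM in quadriceps. Cd163 averaged 3.51 and 3.93 TPM in ground and flight gastrocnemius, and 5.88 and 7.50 TPM in quadriceps. Its gastrocnemius means lay below the minimum of 5 TPM, so it is given as levels with no test. The fibroblast markers were higher for 9 of 11 with a median of 0.15, with Dpt called higher at 0.68 ± 0.07 (adjusted p = 6.83e-04) and Mfap5 called lower at -0.77 ± 0.11 (adjusted p = 0.00261). Mitochondrial mass genes were higher for 17 of 21 with a median of 0.16 and red blood cell markers for 5 of 5 with a median of 0.22, and none of either list was called. The part of these in the difference between muscles was not tested.

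For differential alternative splicing (DAS), the tables list 2 SE events in the set for each muscle, 1 in Cat and 1 in Sod2, and no MXE event. Both exons keep the reading frame. The Cat exon is exon 6 of transcript Cat-201, at chr2:103470299-103470424 on the minus strand of GRCm38, wholly coding with 126 bases or 42 codons. The Sod2 exon is exon 3 of Sod2-201, at chr17:13010520-13010636 on the plus strand, wholly coding with 117 bases or 39 codons. Both are printed from the GENCODE vM21 transcripts because they carry every splicing value of the set, with the exon in capitals and 15 bases of each neighboring exon in lower case.
Cat: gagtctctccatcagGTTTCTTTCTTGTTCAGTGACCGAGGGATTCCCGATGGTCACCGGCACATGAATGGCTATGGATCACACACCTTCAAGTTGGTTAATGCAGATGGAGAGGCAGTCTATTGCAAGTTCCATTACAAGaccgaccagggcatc
Sod2: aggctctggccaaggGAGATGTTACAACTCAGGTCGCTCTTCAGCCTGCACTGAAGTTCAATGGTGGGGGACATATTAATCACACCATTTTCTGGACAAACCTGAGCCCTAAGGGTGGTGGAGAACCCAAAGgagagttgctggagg

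Inclusion of the Cat exon, as percent spliced in (PSI) from inclusion and skipping junction reads scaled by their effective lengths, was near complete in every sample. Sample names are not given in the splicing tables, so its values were not matched to mice. In gastrocnemius PSI was 94.4%, 92.0% and 97.0% on the ground and 100% in all 3 flight samples. In quadriceps it was 97.7%, 100% and 100% on the ground and 93.2%, 94.4% and 92.9% in flight. The groups did not overlap in either muscle, and the directions were opposite. The values rest on few skipping reads, with 2, 3 and 1 on the ground and 0, 0 and 0 in flight in gastrocnemius, and 1, 0 and 0 on the ground and 2, 1 and 2 in flight in quadriceps, beside 34 to 85 inclusion reads per sample.

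The ΔPSI of the Cat exon, flight minus ground, was 5.54 percentage points in gastrocnemius (94.5% ± 2.51 to 100% ± 0) and -5.73 points in quadriceps (99.2% ± 1.33 to 93.5% ± 0.832). The event passed the filter, which left out exons at a PSI of 95% or more in all 6 samples, only through ground samples in gastrocnemius and only through flight samples in quadriceps. The filter thus favored the direction seen, so the ΔPSI is given as a value with no test. Groups without overlap in the direction of Cat were found for 8.22% of 2118 kept events in gastrocnemius and 5.97% of 2062 in quadriceps. By limma 0.378% of kept events were called in gastrocnemius and 0% in quadriceps, where 160 (7.76%) had an unadjusted p under 0.05.

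PSI of the Sod2 exon in gastrocnemius was 96.8%, 92.2% and 100% on the ground and 100%, 98.1% and 100% in flight, which overlapped, with a ΔPSI of 3.04 points (96.3% ± 3.92 to 99.4% ± 1.08). It passed the filter only through the ground sample at 92.2%, so it too is given with no test. In quadriceps PSI was 100% in all 3 ground samples and 96.2%, 100% and 100% in flight, above the 95% bound in every sample. The Cat and Sod2 transcripts that skip these exons were thus rare in every group.

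**Figure D5:**
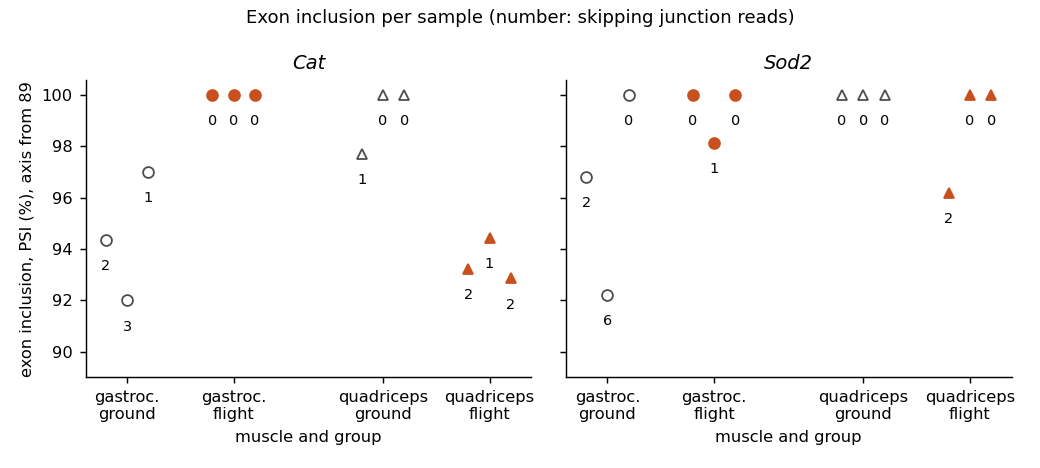
PSI in percent (axis from 89) of the Cat and Sod2 exons in each sample, open for ground and filled for flight, with circles for gastrocnemius and triangles for quadriceps; the number under a point is its skipping junction reads. Cat goes from 92.0% to 97.0% up to 100% in gastrocnemius and from 97.7% to 100% down to 92.9% to 94.4% in quadriceps, on at most 3 skipping reads per sample.

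Shared sequence limits how exactly some of these levels can be assigned to a gene. Of the 31-base words of the Mt2 transcripts, 58.1% also occur in another gene, nearly all in Gm45774, an antisense gene over Mt2 with no row in the table used here, and 0.524% occur in a gene with a row. For Sod2 22.5%, for Sod1 5.41% and for Sod3 0.485% occur in other genes of the table, and for Mt1, Cat, Gpx1, Prdx3, Hmox1 and Nqo1 none do. Mt1 and Mt2 share no such word with each other.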

How the data were processed

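RNA of the 12 muscle samples was sequenced as stranded mRNA libraries with single-end 50 base reads. Per the submitters' processing notes and the study's methods, the authors quantified transcripts with kallisto 0.46.0, summarised them with tximport and deposited TPM per gene; the strand setting is not given in the sources used here. They aligned reads with STAR 2.7.1a to mm10 and deposited rMATS-turbo tables of inclusion and skipping junction read counts with effective lengths. The tables' own inclusion differences, p-values and FDR were not used, nor were unnamed sample positions matched to mice. TPM keeps no depth, so no counting interval is given. Median junction reads per sample and event were 35 in gastrocnemius and 37 in quadriceps.

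The 10 genes and all gene lists were chosen with earlier results of these data known. Genes above 5 TPM in at least 1 library were kept. Flight effects were fitted within each muscle, on the mean of both muscles of a mouse, and as their difference; muscles were compared with mouse as a block, since a mouse gave both (correlations of deviations -0.12 to 0.33). limma 3.58.1 in R 4.3.3 with a trend was used on log2(TPM + 1) in place of the authors' count test (DESeq2 1.26.0), two-sided, with Benjamini-Hochberg adjustment over all kept genes; adjusted p-values in the text are from limma. Confidence intervals are 95%. For splicing, limma was run on the log2 ratio of length-scaled reads plus 0.5, for events averaging over 10 reads in both groups, with calls at a ΔPSI over 5%; the Cat and Sod2 events passed the PSI bound through 1 group only, so their p-values and an interaction added after the data were seen are not used. Named genes were the 10, all their events, per list the called genes and the 2 of lowest p per comparison, and the 5 nearest in profile to the 2 most variable members; from these, those of interest are printed. On simulated data, the gastrocnemius fit recovered 90% of 200 genes changed by 1 log2 unit and the quadriceps fit 93.5%, and the splicing fits 9% and 7% of 200 events. Replicates are separate mice.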

Additional observations from a re-analysis of the deposited data

Results flagged for a closer look

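Inclusion of the Cat exon had opposite directions in the 2 muscles. The flight effect on PSI in quadriceps minus that in gastrocnemius was -11.3 percentage points, with all 3 flight samples above the ground samples in gastrocnemius and all 3 below them in quadriceps. It rests on 6 and 0 skipping reads of 207 and 176 in ground and flight gastrocnemius and on 1 and 5 of 223 and 146 in quadriceps. In each muscle the event was kept only through the group with skipping, which favors the direction seen there. An interaction test run after the values were seen is therefore not used, and the difference counts as not tested.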

How the results depend on the processing

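Genes called for flight, 24 in gastrocnemius, 3 in quadriceps and 13 for the mean of both muscles, depended on the settings. With no filter there were 4 in gastrocnemius and 0 for the mean, without a trend 5, 1 and 0, and with the median-ratio rescaling 1 in quadriceps and 44 for the mean, of which 38.6% were higher against 61.5%; in gastrocnemius 33.3% were higher after rescaling against 50%. A pseudocount of 5 gave 1 in quadriceps, 7 for the mean and 184 between muscles in place of 349, and a pseudocount of 0.1 gave 6 for the mean. No filter gave 2 for the difference between muscles in place of 0. With the replicate number as a block, 0, 0 and 3 were called; numbers did not pair the mice (correlations -0.18 to 0.11). Leaving out a mouse gave 1 to 133 in gastrocnemius, 1 to 4 in quadriceps, 0 to 134 for the mean (0 to 1 of the 10 genes) and 0 to 1 for the difference; leaving out a sample gave 1 to 9 splicing events in gastrocnemius in place of 8. The highest counts, 133 and 134, and the call of Mt1 came without M11. The log2 FC of Cat moved towards 0 without M11, to -0.15 for the mean.

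Some log2 FC changed sign when a mouse was left out: Mt2 in gastrocnemius (-0.015 to 1.17) and between muscles (-0.0096 to 0.31), Gpx1 in gastrocnemius (-0.18 to 0.027), quadriceps (-0.11 to 0.022), the mean (-0.15 to 0.025) and the difference (-0.058 to 0.074), Nqo1 in quadriceps (-0.10 to 0.11) and the mean (-0.17 to 0.021), and Sod1 in the difference (-0.063 to 0.14). The r between muscles ran from -0.50 to 0.411 for Hmox1 and from -0.00146 to 0.792 for Nqo1. The cause was not tested. With 3 mice per group, and few skipping reads, small changes may have been missed. Detection of changes below 1 log2 unit was not simulated.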
